A study of Saccharomyces cerevisiae with 4 samples.

Results

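The pentose phosphate pathway of Saccharomyces cerevisiae was followed here through 10 genes out of 6209 genes in the table. They were chosen by name and function, with earlier results of these data known. All 10 were found in the table, and all 10 passed the filter on low counts, as did 5937 genes in all. The RNA came from the haploid laboratory strain BY4741, with the genotype MATa his3 leu2 met15 ura3 in every library, so that the auxotrophies were shared by control and treated cells. In the treated group, thiolutin was added to cultures in YPD at 3 µg/mL for 3 h, and the untreated group received no compound. Thiolutin is a dithiolopyrrolone with a redox-sensitive disulfide that is used in yeast as an inhibitor of RNA polymerases. There were 2 untreated and 2 thiolutin libraries of poly(A)-selected RNA, and the comparison asks how the transcripts of this pathway stood after the treatment. The labels place the cultures in exponential growth, whereas the methods of the study speak of overnight cultures.

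The pathway runs beside the first steps of glycolysis and starts from glucose 6-phosphate. In its oxidative branch, Zwf1 oxidizes glucose 6-phosphate, the lactonases Sol3 and Sol4 open the lactone, and the 6-phosphogluconate dehydrogenases Gnd1 and Gnd2 release ribulose 5-phosphate. The dehydrogenase steps make NADPH, which yeast spends on the thioredoxin and glutathione systems and on biosynthesis. In the non-oxidative branch, the epimerase Rpe1, the isomerase Rki1, the transketolases Tkl1 and Tkl2 and the transaldolase Tal1 exchange pentose phosphates with glycolytic intermediates and supply ribose 5-phosphate for nucleotides and erythrose 4-phosphate for aromatic amino acids.

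The libraries held 30205335 and 29962621 counts without treatment and 17038991 and 21440741 with thiolutin, of which the 10 genes took 119917, 117331, 40344 and 50823. Values are given as CPM, the counts of a gene relative to the depth of its library, scaled by TMM, the trimmed mean of M-values of edgeR. The untreated libraries lay further apart than the thiolutin libraries: over all genes the middle 90% of log2 ratios between replicates ran from -0.49 to 0.70 in the untreated pair and from -0.23 to 0.20 in the thiolutin pair. Labels name the libraries biological replicates without further detail, so the p-values measure the spread between these libraries. The markers of haploid a cells, the labelled mating type, summed to 1710, 1264, 688 and 696 CPM in the order untreated replicates 1 and 2, then thiolutin replicates 1 and 2, against 41.4 to 46.3 CPM for markers of alpha cells. Across all genes the choice of scale mattered: scaling by total counts moved the median log2 fold change from -0.04 to -0.63. Rises and falls are relative to the other transcripts of a library and are not amounts per cell.

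Of the 10 pathway genes, 1 rose, 6 fell and 3 did not pass the test with thiolutin. ZWF1 rose 3.68-fold, SOL4 and GND2 fell 6.94-fold and 6.79-fold, RPE1 fell 2.26-fold, and GND1, TKL1 and TAL1 fell by smaller factors. SOL3, RKI1 and TKL2 were not called. A gene was called at an adjusted p under 0.05 in the quasi-likelihood test of edgeR with Benjamini-Hochberg adjustment over all genes tested. In the same comparison 63.6% of all genes were called, 31.2% higher and 32.4% lower, so that being called is in itself common in these libraries. The share of all genes that fell at least 2-fold was 10.3%, and 3 of the 10 pathway genes, SOL4, GND2 and RPE1, were among them. The share that rose at least 2-fold was 15.7%, with ZWF1 among them, at percentile 93.57 of the log2 fold changes of all genes tested. The median log2 fold change of the 10 genes was -0.64, against -0.04 over all genes tested. In bulk RNA from a culture, fewer cells of a kind and less RNA per cell cannot be told apart.

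**Figure D1:**
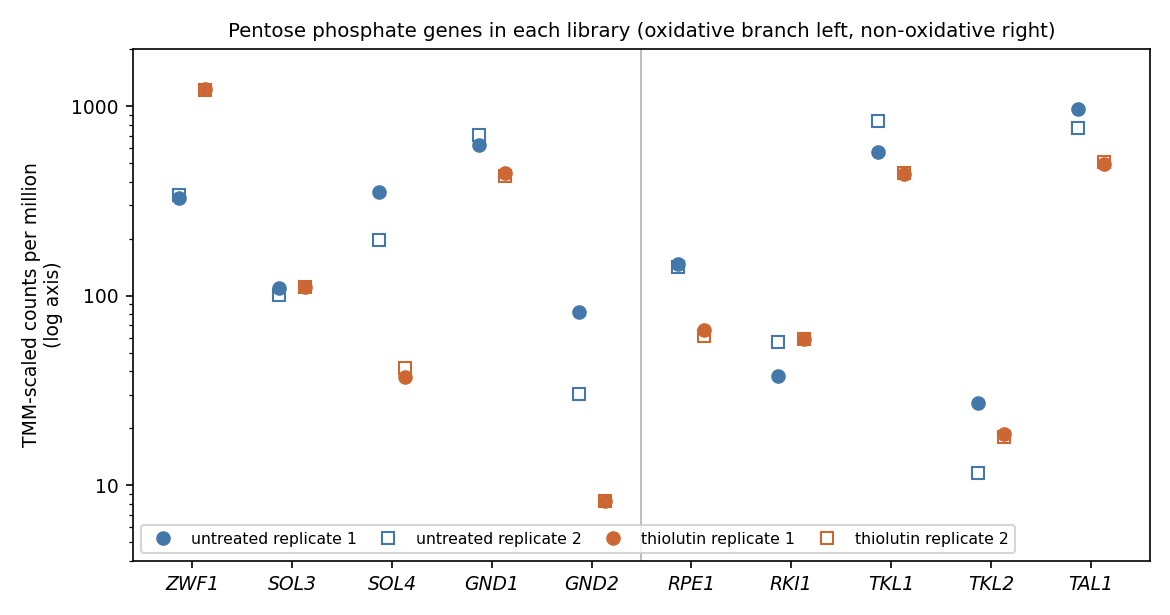
TMM-scaled CPM of each pathway gene in the 4 libraries, on a log axis, with each point a library. The thiolutin points of ZWF1 lie near 1225, above both untreated points, those of SOL4 and GND2 lie far below, and the untreated points of GND2, TKL2 and SOL4 are spread apart.

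ZWF1 encodes glucose 6-phosphate dehydrogenase, which commits glucose 6-phosphate to the pathway and makes its first NADPH. The gene (YNL241C) spans 1518 bases on the minus strand of chromosome XIV, 196426 to 197943, in the R64 build. ZWF1 stood at 326 and 339 CPM without treatment and at 1228 and 1223 CPM with thiolutin. The replicates were nearly equal within each group, and the groups were far apart. The log2 fold change was 1.88 (SE 0.094, 95% interval 1.64 to 2.12, adjusted p = 0.000177, edgeR). Among all tested genes, ZWF1 moved from rank 434 to rank 106 by CPM, counted from the highest. It was called higher under each of the 10 alternative settings tried, with log2 fold changes from 1.29, which was reached with total counts as the scale, to 1.91.

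The bases upstream of ZWF1, of the lactonase and dehydrogenase isoenzymes that fell most, SOL4 and GND2, and of GND1, are shown because these neighbouring steps moved apart. Each stretch covers positions -250 to -101 from the start codon, 5′ to 3′ on the strand of the gene, read from the R64 genome. Both strands were searched for every motif, and no matches overlapped within the 10 windows. Capitals mark the stress element AGGGG, bound by Msn2 and Msn4, on either strand (written CCCCT where it lies on the other strand), and the Stb5 element CGGNGTTA, also on either strand.
ZWF1, chrXIV:198044-198193, minus strand: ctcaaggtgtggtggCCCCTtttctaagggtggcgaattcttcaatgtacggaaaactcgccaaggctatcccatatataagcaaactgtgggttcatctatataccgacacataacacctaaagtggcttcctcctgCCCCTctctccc
SOL4, chrVII:985722-985871, plus strand: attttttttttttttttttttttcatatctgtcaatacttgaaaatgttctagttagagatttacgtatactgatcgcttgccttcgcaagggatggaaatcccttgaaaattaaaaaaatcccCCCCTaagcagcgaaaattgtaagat
GND2, chrVII:1004374-1004523, plus strand: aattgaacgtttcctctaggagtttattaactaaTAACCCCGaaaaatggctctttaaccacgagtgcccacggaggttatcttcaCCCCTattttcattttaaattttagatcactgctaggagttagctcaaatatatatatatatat
GND1, chrVIII:470710-470859, plus strand: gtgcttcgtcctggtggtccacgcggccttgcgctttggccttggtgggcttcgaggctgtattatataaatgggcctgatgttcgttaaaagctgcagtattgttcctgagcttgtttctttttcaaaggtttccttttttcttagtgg
In the full window, from 250 bases before to 50 after the start codon, ZWF1 had 5 matches to AGGGG, at -235, -112, -87, -75 and -68. SOL4 had 1 match at -126 and GND2 had 1 at -164. GND1, RPE1 and RKI1 had none. The element was in the window of 7 of the 10 pathway genes and of 21.7% of 5905 promoters. Those 7 genes were ZWF1, which rose, SOL4, GND2, TKL1 and TAL1, which fell, and SOL3 and TKL2, which were not called, so genes with these letters were found in every class. The Stb5 element was found at SOL3 and GND2 and in 2.3% of promoters. The Yap1 element TTACTAA was found at TKL2 (7.6% of promoters), the other Yap1 element TTAGTCA (3.6%) and the Hsf1 element (0.8%) at none of the 10. The matches describe letters in this window and say nothing of binding.

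The lactonase step is shared by SOL3 and SOL4, paralogs that encode 6-phosphogluconolactonases. SOL4 (YGR248W, chromosome VII, 985972 to 986739, plus strand) stood at 351 and 197 CPM without treatment and at 37.2 and 41.7 CPM with thiolutin. Each thiolutin library lay far below the lower untreated library, although the untreated libraries themselves were far apart. The log2 fold change was -2.79 (SE 0.30, 95% interval -3.57 to -2.02, adjusted p = 0.00123, edgeR), which is 6.94-fold lower. SOL3 (YHR163W, chromosome VIII, 423724 to 424473, plus strand) stood at 109.6 and 100.4 CPM without treatment and at 111 CPM in each thiolutin library. The 4 libraries were nearly level, and the log2 fold change of 0.08 (SE 0.092, 95% interval -0.16 to 0.31, adjusted p = 0.478, edgeR) did not pass the test. Scaled by total counts, SOL3 turned in sign to -0.51 and was called lower, and without untreated replicate 1 it was called higher at 0.15, in a fit whose spread came only from the thiolutin pair. Only 262 bases lie between SOL3 and MPC2, the next gene upstream on the same strand, a mitochondrial pyruvate carrier subunit that rose from a mean of 259 to 1024 CPM (log2 fold change 1.98, adjusted p = 0.000607, edgeR).

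GND1 encodes the major 6-phosphogluconate dehydrogenase of yeast and GND2 the minor one. GND1 (YHR183W, chromosome VIII, 470960 to 472429, plus strand) stood at 623 and 705 CPM without treatment and at 447 and 426 CPM with thiolutin. The groups did not overlap, and GND1 fell, with a log2 fold change of -0.60 (SE 0.11, 95% interval -0.88 to -0.33, adjusted p = 0.00607, edgeR). GND2 (YGR256W, chromosome VII, 1004624 to 1006102, plus strand) stood at 82.5 and 30.1 CPM without treatment and at 8.30 and 8.27 CPM with thiolutin. The untreated replicates differed widely and the thiolutin replicates hardly at all, yet the groups did not overlap. GND2 fell by 2.76 on the log2 scale (SE 0.52, 95% interval -4.11 to -1.42, adjusted p = 0.00763, edgeR), which is 6.79-fold. The size rests on untreated replicate 1: without it the log2 fold change was -1.85, and without untreated replicate 2 it was -3.31. GND2 was counted from 3044, 1112, 115 and 145 reads in the 4 libraries. Its neighbour MTM1, which ends 102 bases away on the other strand, rose from 55.8 to 103 CPM, and the sources used here do not state whether reads were counted by strand.

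The non-oxidative branch had no gene that rose. RPE1 (YJL121C, chromosome X, 190374 to 191090, minus strand) encodes ribulose 5-phosphate 3-epimerase, the entry to xylulose 5-phosphate. RPE1 stood at 147 and 141 CPM without treatment and at 66.3 and 61.3 CPM with thiolutin. Both groups were tight, and RPE1 fell, with a log2 fold change of -1.18 (SE 0.093, 95% interval -1.41 to -0.94, adjusted p = 0.000524, edgeR). RKI1 (YOR095C, chromosome XV, 503552 to 504328, minus strand) encodes the isomerase that makes ribose 5-phosphate. RKI1 stood at 37.8 and 57.2 CPM without treatment and at 59.0 and 59.3 CPM with thiolutin. Untreated replicate 1 was the low library, untreated replicate 2 lay next to the treated ones, and the log2 fold change of 0.32 (SE 0.21, 95% interval -0.21 to 0.84, adjusted p = 0.228, edgeR) did not pass the test. Scaled by total counts, RKI1 turned in sign to -0.27. Without untreated replicate 2 it was 0.65 and passed the test (adjusted p = 4.76e-16, edgeR, within 4.76e-16 to 0.416 over the alternatives), in a fit whose spread came only from the thiolutin pair.

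Transketolase moves carbon pairs between sugar phosphates, with TKL1 as the major gene and TKL2 as the minor one. TKL1 (YPR074C, chromosome XVI, 692796 to 694838, minus strand) stood at 576 and 834 CPM without treatment and at 439.9 and 446 CPM with thiolutin. The thiolutin libraries lay below both untreated ones, and TKL1 fell, with a log2 fold change of -0.67 (SE 0.19, 95% interval -1.16 to -0.18, adjusted p = 0.0288, edgeR). The size of this fall varied with the untreated library kept: it was -0.90 without untreated replicate 1 and -0.37 without untreated replicate 2. TKL2 (YBR117C, chromosome II, 474392 to 476437, minus strand) stood at 27.3 and 11.6 CPM without treatment and at 18.6 and 18.0 CPM with thiolutin. The thiolutin libraries fell between the untreated ones, so that TKL2 was the only pathway gene whose groups overlapped, and its log2 fold change was -0.09 (SE 0.41, 95% interval -1.13 to 0.95, adjusted p = 0.859, edgeR). Its sign turned with the library left out: the log2 fold change was 0.66 without untreated replicate 1 and -0.57 without untreated replicate 2, and it passed the test both times, in fits whose spread came only from the thiolutin pair. TAL1 (YLR354C, chromosome XII, 836350 to 837357, minus strand) encodes transaldolase, which makes erythrose 4-phosphate and fructose 6-phosphate. TAL1 stood at 970.1 and 764 CPM without treatment and at 496 and 506 CPM with thiolutin. It fell, with a log2 fold change of -0.79 (SE 0.14, 95% interval -1.15 to -0.43, adjusted p = 0.00622, edgeR).

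**Figure D2:**
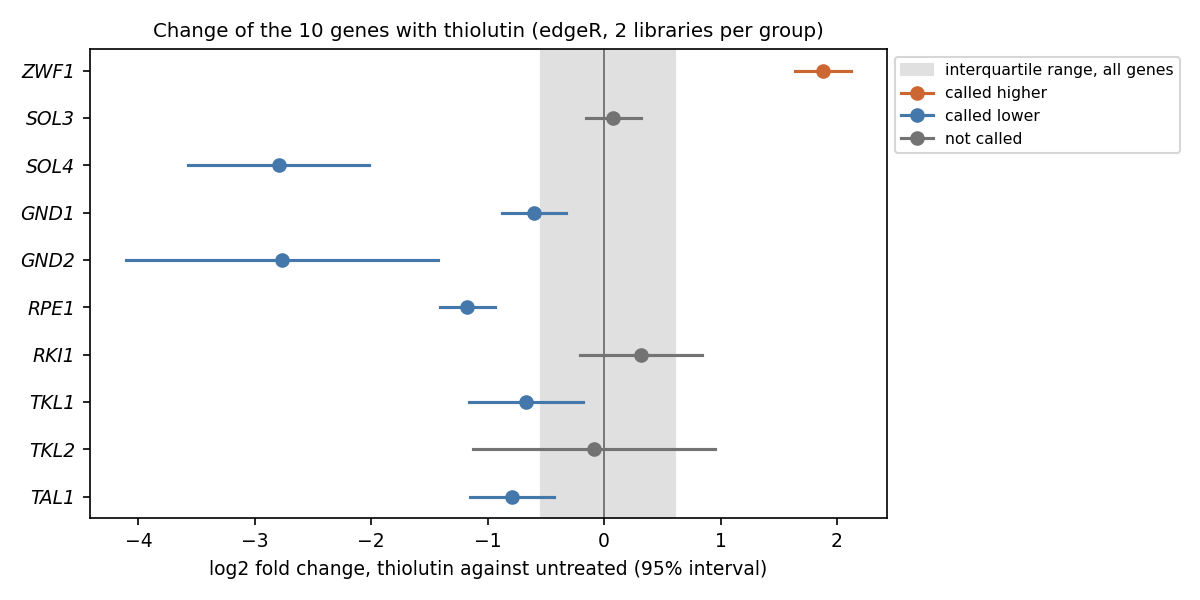
Log2 fold change of each pathway gene with thiolutin, with 95% intervals from edgeR (2 libraries per group), and in grey the interquartile range of all genes tested, from -0.54 to 0.61. ZWF1 lies to the right of the grey range, SOL4, GND2 and RPE1 lie wholly to its left, and the intervals of GND2 and TKL2 are the widest.

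Groups that did not overlap were found for 3 genes higher with thiolutin (ZWF1, SOL3 and RKI1) and for 6 genes lower, against 40.8% of all genes higher and 43.9% lower. Leaving out either thiolutin library ended the calls of GND1, TKL1 and TAL1, with adjusted p-values in edgeR from 0.0756 to 0.155. SOL4, GND2 and RPE1 were called lower under all 10 alternatives. At an adjusted p under 0.01, which 44.2% of all genes met, TKL1 was no longer among the called genes.

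The isoenzyme pairs were compared as shares of counts per kilobase of gene length, which do not depend on the scale of the library. SOL4 made up 75.8% and 65.7% of the SOL3 and SOL4 counts without treatment and 24.6% and 26.9% with thiolutin. The lactonase step thus had mostly SOL4 reads in untreated cells and mostly SOL3 reads in treated cells. GND2 made up 11.6% and 4.08% of the pair with GND1 without treatment and 1.81% and 1.89% with thiolutin. GND1 was the main transcript of its step in every library, and the difference of its GND2 share, -6.00 points, was -2.22 points without untreated replicate 1 and -9.79 points without untreated replicate 2. TKL2 made up 4.52% and 1.37% of the pair with TKL1 without treatment and 4.06% and 3.87% with thiolutin, so that its groups overlapped. For counting error alone, the 95% exact Clopper-Pearson interval had a half-width of at most 1.90 points for any of these pairs. It was taken on shares of the raw counts, not on shares per kilobase. With 2 libraries against 2, the two-sided exact permutation test cannot go below p = 0.333, which was its value for SOL4 and GND2, and it was 1 for TKL2.

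The coding sequences of the paralogs were compared, since near-identical copies could share reads. GND2 and GND1 were identical at 78.6% of aligned coding bases, TKL2 and TKL1 at 69.4%, and SOL4 and SOL3 at 56.9%. The longest run shared exactly by GND2 and GND1 is shown because it was the longest of any pair, at chrVII:1004669-1004688 in GND2. Likeness over the length of a read was not tested.
Shared by GND2 and GND1: atgggtcaaaatttgatctt
This run has 20 bases, the longest one of TKL2 and TKL1 has 17, and that of SOL4 and SOL3 has 8. No stretch of 50 bases was shared within any pair.

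Per kilobase, ZWF1 overtook the other steps. The summed level of the ZWF1 step was 219 ± 5.85 CPM per kb (mean ± SD, n = 2) without treatment and 807 ± 2.32 with thiolutin, which moved it from rank 5 to rank 1 of the 7 steps. The transaldolase step, first in untreated cells at 860 ± 144 CPM per kb, was second with thiolutin at 497 ± 6.81. The lactonase step went from 497 ± 151 to 199 ± 3.50 CPM per kb, and from rank 2 to rank 5. The 6-phosphogluconate dehydrogenase step stayed at rank 3, at 489.6 ± 14.6 and then 303 ± 9.95 CPM per kb. The transketolase step was at 355 ± 84.0 and 226 ± 1.75, the epimerase step at 201 ± 5.64 and 89.0 ± 4.85, and the isomerase step at 61.1 ± 17.7 and 76.1 ± 0.226 CPM per kb. In untreated cells the lactonase libraries, at 604 and 389.8 CPM per kb, spanned those of the 6-phosphogluconate dehydrogenase step and overlapped those of the transketolase step, so the place of the lactonase step among these was within the spread between replicates. No neighbouring steps overlapped with thiolutin.

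ZWF1 and the dehydrogenases that follow it moved in opposite directions. ZWF1 was 31.0% and 30.9% of the counts per kilobase of ZWF1, GND1 and GND2 without treatment and 72.3% and 73.2% with thiolutin. Among all 10 genes its share was 7.66% and 8.74% without treatment and 36.8% and 36.7% with thiolutin. TAL1 made up 34.3% and 29.7% and then 22.4% and 22.9%. The oxidative branch as a whole took 46.2% and 43.6% of the pathway's counts per kilobase without treatment and 59.8% and 59.4% with thiolutin, a difference of 14.7 points. Over the same libraries the share of ZWF1 alone was 28.5 points higher, and the shares of SOL4, GND1 and GND2 were lower in each thiolutin library than in either untreated library. These shares did not overlap between groups (exact permutation p = 0.333, the smallest that the design allows).

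**Figure D3:**
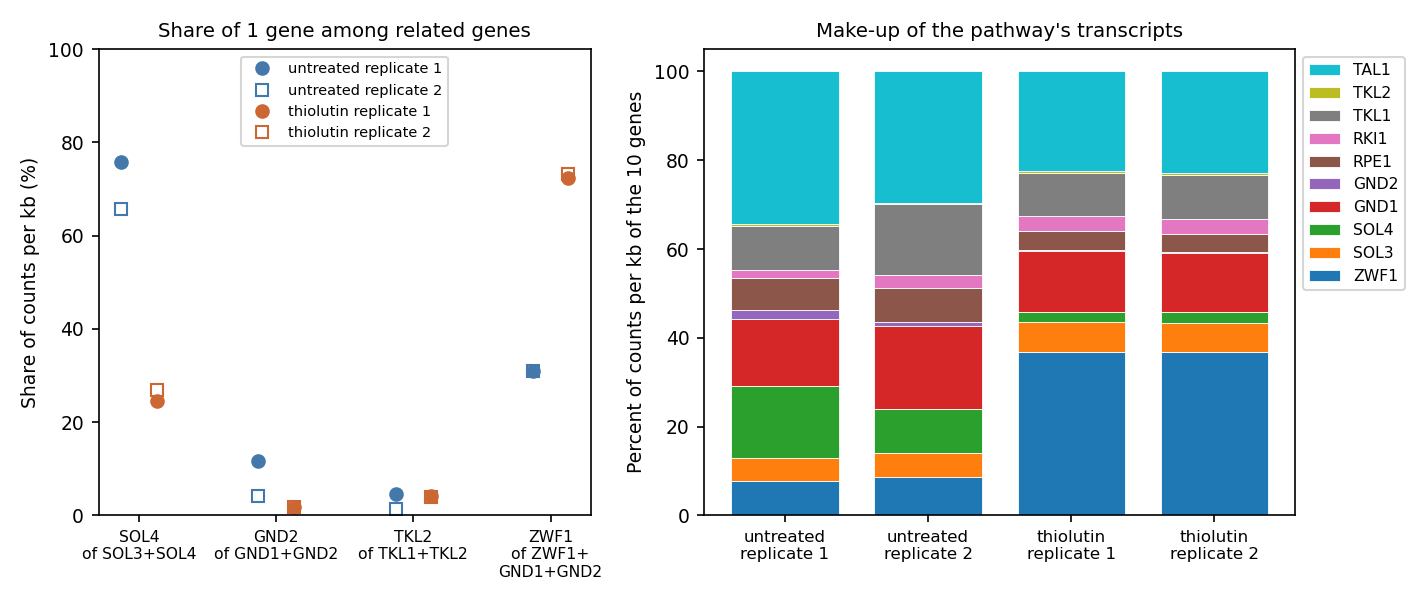
Left, the share in percent of SOL4, GND2, TKL2 and ZWF1 in the counts per kilobase of their own set of genes, with each point a library. Right, the make-up of the counts per kilobase of the 10 genes in each library, where ZWF1 takes 7.66% and 8.74% of the untreated bars and 36.8% and 36.7% of the thiolutin bars.

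GND2, TKL2 and SOL4 were high in the same untreated library as the general stress genes. The log2 ratio of untreated replicate 1 to replicate 2 was 1.45 for GND2, 1.23 for TKL2 and 0.84 for SOL4, at percentiles 99.04, 98.47 and 95.77 of all genes tested. RKI1 and TKL1 leaned the other way, at -0.60 and -0.53, whereas ZWF1 and RPE1 stood at -0.05 and 0.06. NQM1, the paralog of TAL1, had a ratio of 1.45. All 8 general stress genes fixed as a list, which are often driven by Msn2 and Msn4, were higher in untreated replicate 1. Their median log2 ratio was 0.94, with a range from 0.06 for TSL1 to 1.84 for HSP12. Over all genes tested, 3035 of 5937 were higher in untreated replicate 1, with a median log2 ratio of 0.0063. The 5 a-cell markers were also all higher there (median 0.52), whereas 0 of the 4 regulators named below were. The summed level of the general stress genes was 8122 and 5758 CPM in the untreated replicates and 3627 and 3769 CPM with thiolutin. The part of this difference between the untreated libraries in the values of GND2, TKL2 and SOL4 was not tested.

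**Figure D4:**
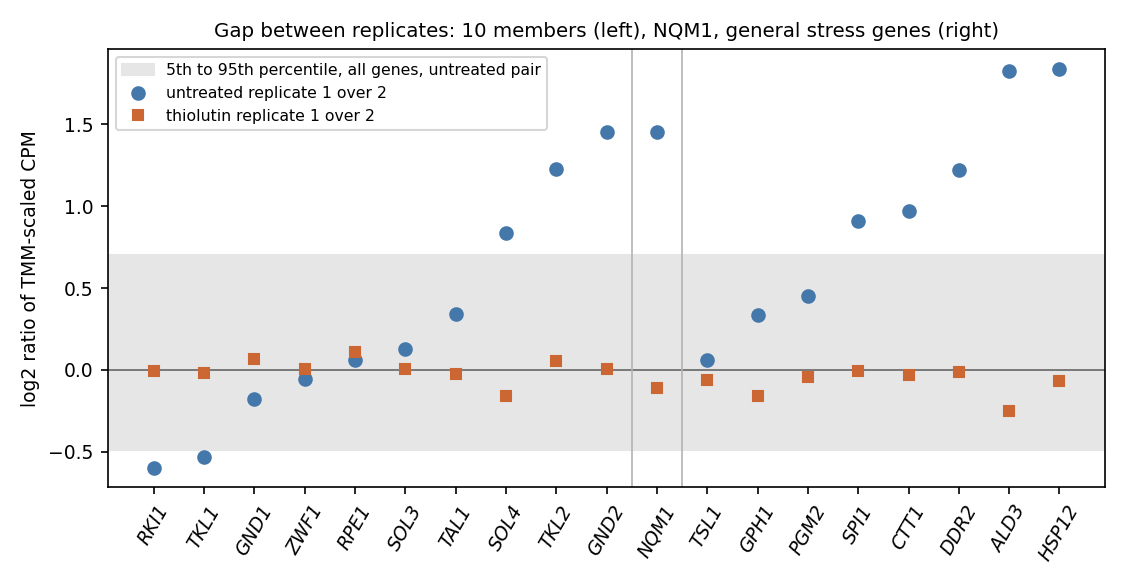
Log2 ratio of replicate 1 to replicate 2 in the untreated pair (circles) and the thiolutin pair (squares) for the 10 pathway genes, NQM1 and the general stress genes, with the middle 90% of all genes in the untreated pair in grey. GND2, TKL2 and SOL4 lie above the grey band, as do NQM1 and 5 of the 8 stress genes. RKI1 and TKL1 lie below the band, and the thiolutin ratios lie near 0.

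Genes around the pathway were read from lists chosen for their function, 45 genes in all, of which 16 rose and 14 fell, against 31.2% higher and 32.4% lower among all genes tested. Among 7 related enzymes, 1 rose, 2 fell and 4 were not called, with a median log2 fold change of -0.36. SOL1, a paralog of the lactonases that acts in tRNA export, rose (log2 fold change 1.18). XKS1, the xylulokinase, fell by 1.80 and PGM3, a phosphoribomutase listed in the table as PRM15, fell by 1.15 on the log2 scale. NQM1 (-0.67), SHB17 (-0.36), the sedoheptulose bisphosphatase, SOL2 (-0.10) and the ribokinase gene RBK1 (-0.12) were not called.

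Among 8 other makers of NADPH or of its precursor NADP, 4 rose, 2 fell and 2 were not called. IDP3, the peroxisomal isocitrate dehydrogenase, stood at 15.0 and 11.4 CPM and then at 74.4 and 80.0 CPM and rose (log2 fold change 2.55). IDP3 ends at base 616083 on the plus strand, and ASI3 lies beyond it at 616211 to 618241 on the minus strand. ASI3 rose from a mean of 63.8 to 811 CPM (log2 fold change 3.67). No strand setting is stated, and whether reads of ASI3 were counted in IDP3 was not tested. The NAD kinase gene UTR1 (0.98), the cytosolic acetaldehyde dehydrogenase gene ALD6 (0.82) and the mitochondrial isocitrate dehydrogenase gene IDP1 (0.64) also rose. Scaled by total counts, ALD6 (0.23) and IDP1 (0.052) were no longer called, and their calls and that of POS5 also ended without either thiolutin library. Without untreated replicate 2, ALD6 stood at 1.24, and without untreated replicate 1 at 0.50. MAE1, the mitochondrial malic enzyme, fell by 1.48 and POS5, the mitochondrial NADH kinase, fell by 0.45 on the log2 scale. IDP2 and YEF1 were not called, at 0.11 and -0.35. Of 3 NADPH-using reductases, TRR1, the cytosolic thioredoxin reductase, rose (log2 fold change 2.23), with 350 and 400.2 CPM without treatment and 1762 and 1757 with thiolutin. GLR1, the glutathione reductase, rose (1.01), and TRR2, the mitochondrial thioredoxin reductase, fell by 0.64 on the log2 scale, a call that ended without either thiolutin library.

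Genes that supply or use glucose 6-phosphate were split, with 3 higher, 3 lower and 2 not called of 8. HXK2, the main hexokinase in glucose, rose from 1020 and 1477 CPM to 5144 and 5092 CPM (log2 fold change 2.04). HXK1, its paralog, stood at 4846 and 2779 CPM without treatment and at 680.4 and 678 CPM with thiolutin and fell by 2.49 on the log2 scale. PGI1, which takes glucose 6-phosphate into glycolysis, rose (1.00), as did PFK2 (0.77), a phosphofructokinase subunit. PFK2 was not called when scaled by total counts (0.18) or without either thiolutin library. The phosphoglucomutase genes PGM2 and PGM1, which lead towards glycogen and trehalose, fell by 2.14 and 0.98. GLK1 and PFK1, at -0.12 and -0.06, were not called.

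Of 5 PRPP synthetase genes, which use ribose 5-phosphate, PRS2 fell by 1.32 and PRS5 by 0.41 on the log2 scale, and PRS1 (-0.17), PRS3 (-0.11) and PRS4 (0.32) were not called. Of 3 genes of the shikimate route that begins with erythrose 4-phosphate, ARO4 (0.60) and ARO3 (0.36) rose and ARO1 (0.16) was not called. Scaled by total counts, ARO3 and PRS4 turned to -0.23 and -0.27, ARO4 was at 0.0077 and not called, and ARO1 was called lower at -0.43, so that no gene of the shikimate list was higher under that scale. The calls of ARO3, ARO4 and PRS5 ended without either thiolutin library.

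The regulators were measured as transcripts only. YAP1, an activator of the oxidative stress response, rose from 137 and 156 CPM to 918 and 917 CPM (log2 fold change 2.65, adjusted p = 0.000131, edgeR). STB5, an activator of several pathway genes in oxidative stress, rose by a log2 fold change of 0.45, which turned to -0.14 with total counts as the scale and was not called without either thiolutin library. MSN2 rose (0.75), a call that ended when scaled by total counts (0.16), and MSN4 fell by 1.90 on the log2 scale. Of the 8 general stress genes, GPH1 (-4.12), TSL1 (-2.84), ALD3 (-2.28) and PGM2 (-2.14) fell, HSP12 (2.45) rose and CTT1 (-0.64), SPI1 (-0.56) and DDR2 (0.54) were not called. Without untreated replicate 1, ALD3 stood at -1.08 and HSP12 at 3.65, and without untreated replicate 2 at -2.91 and 1.81. The call of ALD3 ended without either thiolutin library.

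**Figure D5:**
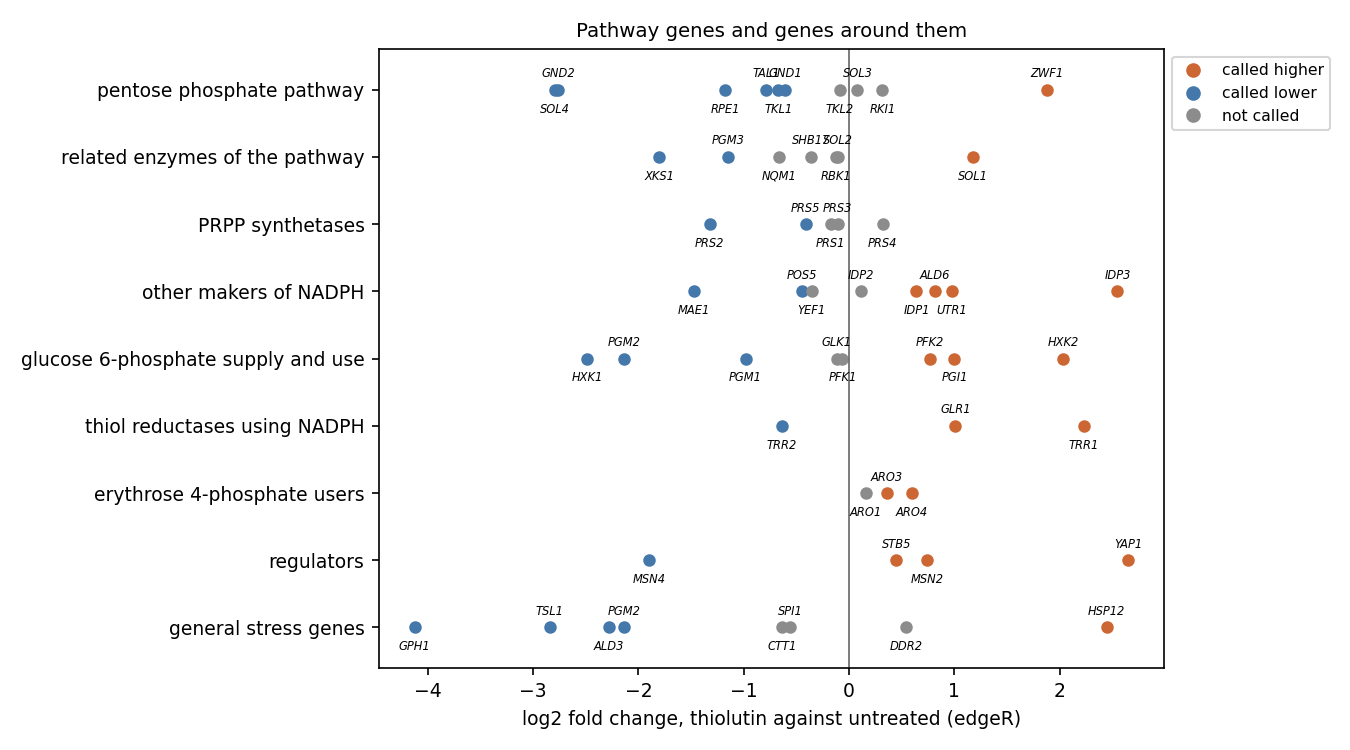
Log2 fold change with thiolutin of the pathway genes and of each list around the pathway, with each point a gene, coloured by its call in edgeR at an adjusted p under 0.05. ZWF1, IDP3, TRR1, HXK2, YAP1 and HSP12 lie at the right, and SOL4, GND2, HXK1, TSL1 and GPH1 at the left.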

How the data were processed

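Poly(A)-selected RNA of 4 libraries was sequenced in paired ends. Per the labels, 2 were untreated and 2 treated with thiolutin. The design text names more replicates per condition, and any others were not analysed here. The authors deposited raw read counts per gene on the R64 build with tools that the sources used here do not name, and no strand setting is stated. Another 4 columns of normalised counts and the authors' own fold changes, p-values and FDR (their DESeq2 comparison) were not used.

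Counts were tested with edgeR 4.0.16 in R 4.3.3 (filterByExpr, TMM, glmQLFit and glmQLFTest) over all 5937 genes that passed, with no covariate, adjusted by the Benjamini-Hochberg method and called at 0.05. The standard error is the log2 fold change over the square root of its F. Levels were compared between genes per kilobase. Alternatives were DESeq2 1.42.0, other scalings, no filter, a replicate block and leaving out each library. The fitting script was tested on counts simulated with the same dispersion in both groups, which does not reproduce their unequal spread. Replicates differed beyond sampling noise in both groups, with a chi-square per degree of freedom of 138 in the untreated pair and 2.51 in the thiolutin pair. All libraries were kept. Of 6209 genes, 6198 were found in the RefSeq R64 annotation, 5878 with equal coordinates, including all 10 pathway genes.

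The members and lists were chosen with earlier results of these data known. The text names the 10 genes, every gene of the lists around the pathway, genes next to a member and ASI3 beside IDP3. For the genes with the highest and lowest change, it also names the 3 nearest patterns over the 4 libraries.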

Additional observations from a re-analysis of the deposited data

How the results depend on the processing

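ZWF1, SOL4, GND2 and RPE1 kept their direction and their call under all 10 alternatives. Of the 100 values of the pathway genes over these alternatives, 86 kept direction and side of the threshold, 6 lost the call, 3 gained it in the same direction and 5 turned direction, of which 2 (SOL3 under total counts and TKL2 without untreated replicate 1) also passed the test. Scaling by total counts gave 965 genes higher and 3605 lower, so that 21.1% of the called genes were higher against 49.0% with TMM. Under that scale the log2 fold change turned for SOL3 (-0.51), RKI1 (-0.27), PRS4 (-0.27), IDP2 (-0.48), ARO3 (-0.23), ARO1 (-0.43), STB5 (-0.14) and DDR2 (-0.048), and of the genes around the pathway 9 were higher and 25 lower. Upper quartile scaling turned SOL3 (-0.0069). The cause was not tested.

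Without untreated replicate 1 the values turned for TKL2 (0.66), NQM1 (0.24) and GLK1 (0.16), which gave -0.57, -1.21 and -0.33 without untreated replicate 2. Without untreated replicate 2 they turned for PRS3 (0.024), IDP2 (-0.15) and PFK1 (0.17), which gave -0.22, 0.44 and -0.25 without untreated replicate 1. Leaving out 1 library at a time gave 1 to 3 pathway genes higher and 3 to 7 lower, and 10 to 21 higher and 10 to 22 lower around the pathway. The count of 3 lower came without thiolutin replicate 1 and without thiolutin replicate 2, and 3 were also lower once a 2-fold change was required. The share of GND2 in its pair differed by -9.79 to -2.22 points, that of SOL4 by -50.04 to -39.9, that of TKL2 by -0.55 to 2.59 and that of the oxidative branch by 13.4 to 16.0. In fits without an untreated library the spread came from the closer thiolutin pair.

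The labels give both groups the same replicate numbers, but nothing pairs them, and the correlation of their deviations was 0.023. With a replicate block, 1 pathway gene was higher and 6 were lower, and TKL2 turned to 0.032. Depth limits GND2 most, with 115 and 145 counts in the thiolutin libraries.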

Other observations

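The genes whose 4 values lay nearest those of ZWF1, by the distance of centred log2 CPM over the 4 libraries, were RDS3, a subunit of the U2 snRNP (distance 0.0377), MTC1 (0.0449) and HLJ1, an Hsp40 co-chaperone (0.062). MTC1 stood at 187 and 194 CPM without treatment and at 676 and 691 CPM with thiolutin. HLJ1 stood at 49.7 and 51.0 CPM and then at 178 CPM in each thiolutin library. The genes nearest SOL4 lay further off and were GDB1, the glycogen debranching enzyme (0.184), FMP33 (0.186) and PIG2, a putative phosphatase regulator (0.221). GDB1 stood at 645 and 392 CPM without treatment and at 81.9 and 83.0 CPM with thiolutin, so that untreated replicate 1 was the higher one, as for SOL4. PIG2 stood at 258 and 170.5 CPM and then at 33.5 and 33.7 CPM. These genes were chosen by their likeness, which is a description over 4 libraries.

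The neighbours of the pathway genes moved in both directions. NAR1, 558 bases upstream of ZWF1 on the same strand, rose (log2 fold change 0.89) from 36.8 to 68.4 CPM, and ATG2, 323 bases beyond its end, fell by 0.70. TEF2, a translation elongation factor gene upstream of TKL2, rose (1.56), as did LYS2 (0.71) on its other side. Beside TAL1, BUD8 fell by 1.34 and ILV5 (0.36) was not called. Beside TKL1, LTP1 rose (1.18) and OPY2 (-0.09) was not called. MGA1 and CPD1, on either side of SOL4, fell by 1.28 and 0.47. Beside GND1, RGD3 fell by 0.32 and SSP1 (0.55) was not called. ALB1 beside RPE1 and DNA2 beside SOL3 rose (0.64 and 0.32), and YJL118W, ARF3 and RPS7A were not called. No neighbour overlapped a pathway gene.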
